A study of Mus musculus with 2 samples.

Results

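The EGF family genes described here are 6 ligands (*Egf*, *Tgfa*, *Areg*, *Ereg*, *Hbegf* and *Btc*), 3 receptors (*Egfr*, *Erbb2* and *Erbb3*) and the feedback inhibitor *Errfi1*, measured in the vagina of WT and *Fbln5*-/- mice. Every probe set annotated to exactly 1 of these genes was taken. This gave 21 of the 45101 probe sets on each array, for 9 of the 10 genes, among 18193 genes with a probe set of their own in all. No probe set was annotated to *Areg*, which was therefore not analysed here. The animals of both groups were female C57/Bl6 mice, labelled as 6 months old, that were ovariectomized and then given estradiol at 50 µg/kg/d for 3 d. They differed in genotype, wild type in one group and lacking *Fbln5* in the other. Ovariectomy is given at 11 d in the sample labels but at 2 weeks in the description of the series. Fibulin-5, the product of *Fbln5*, is a matrix protein needed for elastic fibers, and the arrays of the study were made to compare gene expression in the vaginal wall with and without it under 1 hormonal state. The methods describe 2 animals in each group, and 1 array per genotype was analysed here, without a statement on pooling. There is therefore no replicate, and no error or p-value is given for any difference.

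EGF family ligands are made as membrane-bound precursors, are released by proteolytic cleavage, and bind receptor tyrosine kinases that pair with each other and signal through RAS and MAP kinases, PI3 kinase and phospholipase C. In stratified epithelia, to which the vaginal lining belongs under estrogen, this signaling drives growth of keratinocytes and is an early part of the response to wounding. Activated receptors also switch on their own inhibitors, of which *Errfi1* is one.

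Values are MAS5 signals, the brightness of a probe set on a linear scale, after the medians of the arrays were made equal. A signal under 100 was taken as not measured, after the limit in the study's methods. The study applied that limit to probe sets under it in both genotypes, and here it was applied to each array. Where 1 array lay under 100 the difference is a bound against 100, and where both did no difference is given. A gene is represented by its brightest probe set unless stated, and a log2 ratio is that of the *Fbln5*-/- array over the WT array. Signals of different probe sets cannot be ranked against each other, so genes are compared by their ratios.

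*Fbln5* itself read 410.4 in WT and 30.4 in *Fbln5*-/-, at least 4.10-fold lower, and its second probe set was under 100 on both. Each of 6 basal and 10 suprabasal epithelial markers, 5 smooth muscle markers and 5 fibroblast markers was above 100 on both arrays, as the label of vagina would have it. The control probe sets at the 3′ end of *Gapdh* and *Actb* had log2 ratios of 0.05 and −0.18, those in the middle −1.16 and −1.22, and those at the 5′ end −4.44 and −1.87. Signal toward the 5′ end of these transcripts was thus lower on the *Fbln5*-/- array. The part of this difference in the ratios given below, higher as well as lower, was not tested.

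On the *Fbln5*-/- array, 1 of the 9 EGF family genes was higher by 2-fold or more and 0 were lower by as much. Over all 11934 genes measured, 5.8% (692) were at least 2-fold higher and 3.95% (471) were at least 2-fold lower, a split that turned to 555 and 571 when the median ratio of probe sets past the limit on each array was set to 1. The median log2 ratio of the 9 genes was 0.64, against 0.15 over all genes. The members were chosen with earlier results of these data known. The middle gene was *Egf*, whose ratio is a bound and which passed the limit of 100 through the *Fbln5*-/- array alone. Without it the median was 0.73. With the mean over the probe sets of each gene, the median of the 9 genes was 0.33, against 0.09 over all genes. At a difference of 1.5-fold, a limit chosen after the values were seen, 6 of the 9 genes were higher and 0 were lower, where 18.2% of all genes were higher and 9.3% were lower. The 6 genes were *Ereg*, *Egfr*, *Btc*, *Erbb3*, *Egf* and *Tgfa*. The count was 5 under each other scaling of the arrays, where *Tgfa* lay under 1.5-fold, beside 13.9% to 16.0% of all genes. With the mean over the probe sets of a gene it was 4, where *Egfr* lay under 1.5-fold as well, beside 14.5%. With the limit at 200 it was 5 of 8, beside 17.1% of all genes. *Egf*, for which the limit of 100 left no other direction, was not counted there. By probe set, 15 of the 21 passed the limit of 100 on at least 1 array. Of these 15, 1 was at least 2-fold higher and 0 were at least 2-fold lower. Of all 19627 probe sets that carried 1 gene name and passed the same limit, 4.74% were higher and 6.39% lower by as much. The median log2 ratio of the 15 was 0.27, with 11 above 0 and 4 below.

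**Figure D1:**
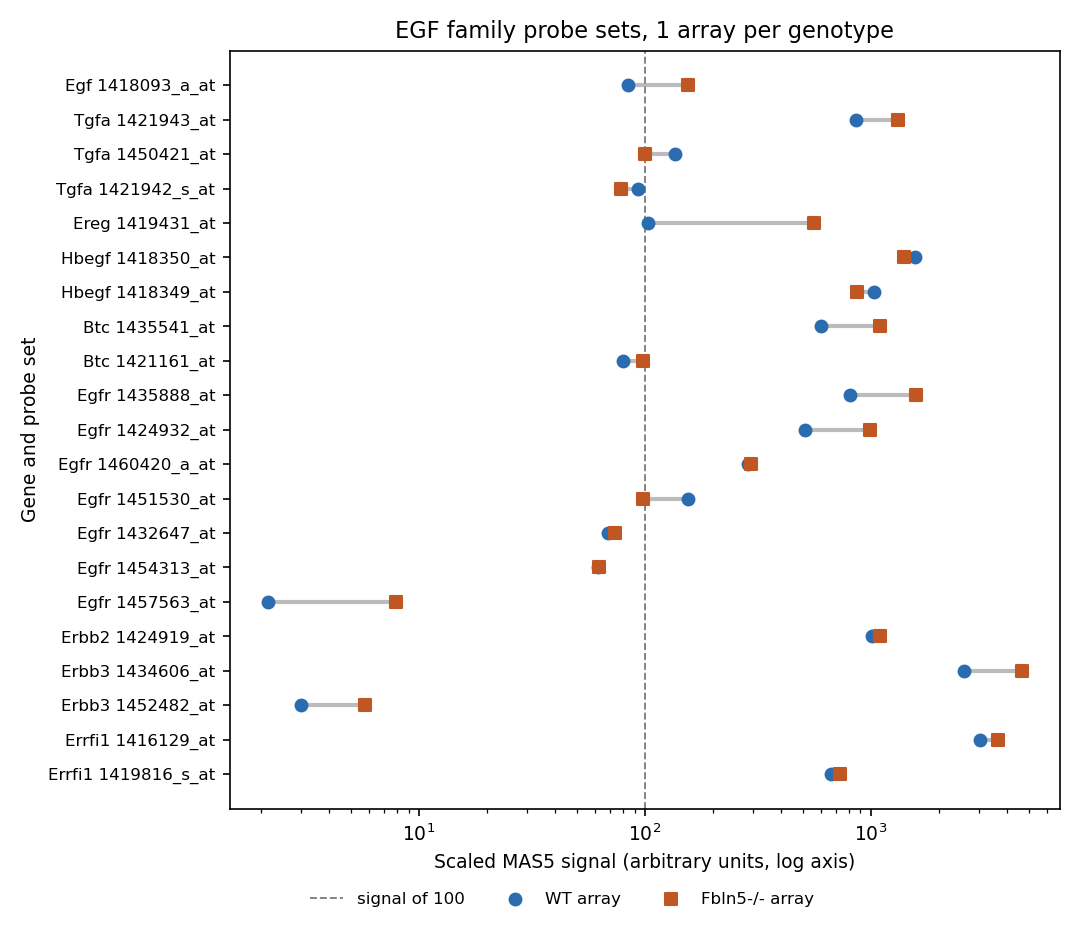
Scaled MAS5 signal (log axis) of each of the 21 probe sets of the EGF family, with circles for the WT array and squares for the *Fbln5*-/- array, 1 array each, and a dashed line at a signal of 100. *Ereg* shows the widest gap among probe sets past that line (103.7 and 558.2), the 2 brightest *Egfr* probe sets and the brightest *Btc* and *Erbb3* probe sets are higher on the *Fbln5*-/- array, and both *Hbegf* probe sets are lower.

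Among the ligands, epiregulin stood apart. *Ereg*, which encodes this ligand of EGFR and ERBB4, read 103.7 in WT and 558.2 in *Fbln5*-/-. The difference was 5.38-fold, a log2 ratio of 2.43, and 0.637% of all genes measured had a higher ratio. Its WT signal lay just above the limit of 100, so the size of the ratio rests on a dim reading, and with the limit and floor at 200 the log2 ratio was at least 1.48. *Ereg* is represented by 1 probe set, so no second reading of the transcript was at hand.

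Markers of other cells differed between the same arrays. Of 4 adipocyte markers with a probe set, 2 were above 100 on at least 1 array and both were at least 2-fold higher, and *Cidec* and *Lep* were under 100 on both. The summed signal of the 4 was 2127 for WT and 6949 for *Fbln5*-/-. Of 5 neutrophil markers with a probe set, *S100a8* and *S100a9*, which keratinocytes also make, were at least 2-fold higher, with log2 ratios of 1.87 and 1.54. The granule genes *Ngp* and *Camp* went the other way, from 124.7 and 111.2 in WT to under 100 on the *Fbln5*-/- array, and *Mpo* was under 100 on both. The summed signal of the 5 was 1928 and 5732, of which *S100a8* alone gave 1198 and 4372. Of 5 macrophage markers, 1, *Mrc1*, was at least 2-fold higher, with a log2 ratio of 1.42. *Csf1r* and *Adgre1* had log2 ratios of 0.56 and 0.46, and *Cd68* and *Lyz2* had −0.03 and −0.19. The summed signal of these 5 was 9024 and 11192. The part of these cells in the *Ereg* reading was not tested. The basal and suprabasal epithelial lists, whose cells are a known source of these ligands, had median log2 ratios of 0.16 and 0.19. Of the 10 suprabasal markers 1, *Ivl*, was at least 2-fold higher (520.9 and 1341), and of the 6 basal markers 0 were. The fibroblast and smooth muscle lists had medians of 0.40 and −0.02, and 0 of the 5 markers in each differed by 2-fold. In RNA from whole tissue, more cells of a type and more RNA per cell cannot be told apart.

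*Btc*, which encodes betacellulin, a ligand of EGFR and ERBB4, read 604.7 and 1102 at the brighter of its probe sets, 1.82-fold higher on the *Fbln5*-/- array. Its other probe set read 80.4 and 98.1, under 100 on both arrays. *Tgfa*, which encodes transforming growth factor α, a keratinocyte ligand of EGFR, had signals of 862.1 and 1319 at its brightest probe set, 1.53-fold higher. A second *Tgfa* probe set ran the other way, from 136.6 on the WT array to 99.7 on the *Fbln5*-/- array, at least 1.37-fold lower. The third read 93.0 and 78.3. The direction for *Tgfa* thus depended on the probe set, and the mean log2 ratio of the 2 past the limit was 0.08.

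*Egf* encodes the founding ligand, which is best known from kidney and salivary gland. Its single probe set had signals of 84.3 and 155.7, higher in *Fbln5*-/- by at least 1.56-fold. The gene passed the limit through the *Fbln5*-/- array alone, so a higher reading was the only direction open to it. All 5 kidney and salivary gland markers with a probe set were under 100 on both arrays. *Hbegf* encodes a heparin-binding ligand made by migrating keratinocytes. Its 2 probe sets read 1573 and 1405, and 1032 and 865.6, which are log2 ratios of −0.16 and −0.25. It was the 1 gene among the 5 ligands measured whose brightest probe set was lower on the *Fbln5*-/- array. The difference was less than 1.5-fold at both probe sets.

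Of the receptors, *Egfr* and *Erbb3* were higher on the *Fbln5*-/- array at their brightest probe sets, each by just under 2-fold. *Egfr*, the receptor that all 6 ligands bind, had signals of 810.7 and 1587 at its brightest probe set, a log2 ratio of 0.97. The second *Egfr* probe set read 513.7 and 997.2, a log2 ratio of 0.96. The third read 287.1 and 293.9, a log2 ratio of 0.03, and the fourth 154.7 and 97.8, at least 1.55-fold lower. The remaining 3 were under 100 on both arrays. The SD of the 3 *Egfr* probe sets that reached 100 on both arrays was 0.54 (log2 scale). The pooled SD among probe sets of 1 gene was 0.52. It was taken over 4114 genes with at least 2 probe sets that reached 100 on each array. The mean log2 ratio of the 4 *Egfr* probe sets past the limit was 0.33. The higher *Egfr* reading was thus that of its 2 brightest probe sets and was not shared by all. Where each probe set lies along the transcript was not analysed here, and the part of the lower 5′ signal seen at *Gapdh* and *Actb* was not tested.

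*Erbb3* encodes a receptor with little kinase activity of its own, which binds neuregulins and signals as a partner of ERBB2. Its signals were 2584 and 4673 at the brighter probe set, 1.81-fold higher on the *Fbln5*-/- array, while the other probe set was under 100 on both. *Erbb2*, the receptor with no known ligand, had signals of 1012 and 1095 at its 1 probe set, a log2 ratio of 0.11, below the median of 0.15 over all genes. The higher readings of *Egfr* and *Erbb3* were thus not accompanied by one of *Erbb2*. *Erbb4*, the remaining receptor, read 2.82 and 1.65, under 100 on both arrays.

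*Errfi1*, which encodes an inhibitor that binds the EGFR kinase domain and is switched on by receptor activity, read 3043 and 3670 at the brighter probe set and 666.7 and 730.1 at the other. The log2 ratios were 0.27 and 0.13. Of all genes, 39.5% had a higher ratio than its brighter probe set.

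**Figure D2:**
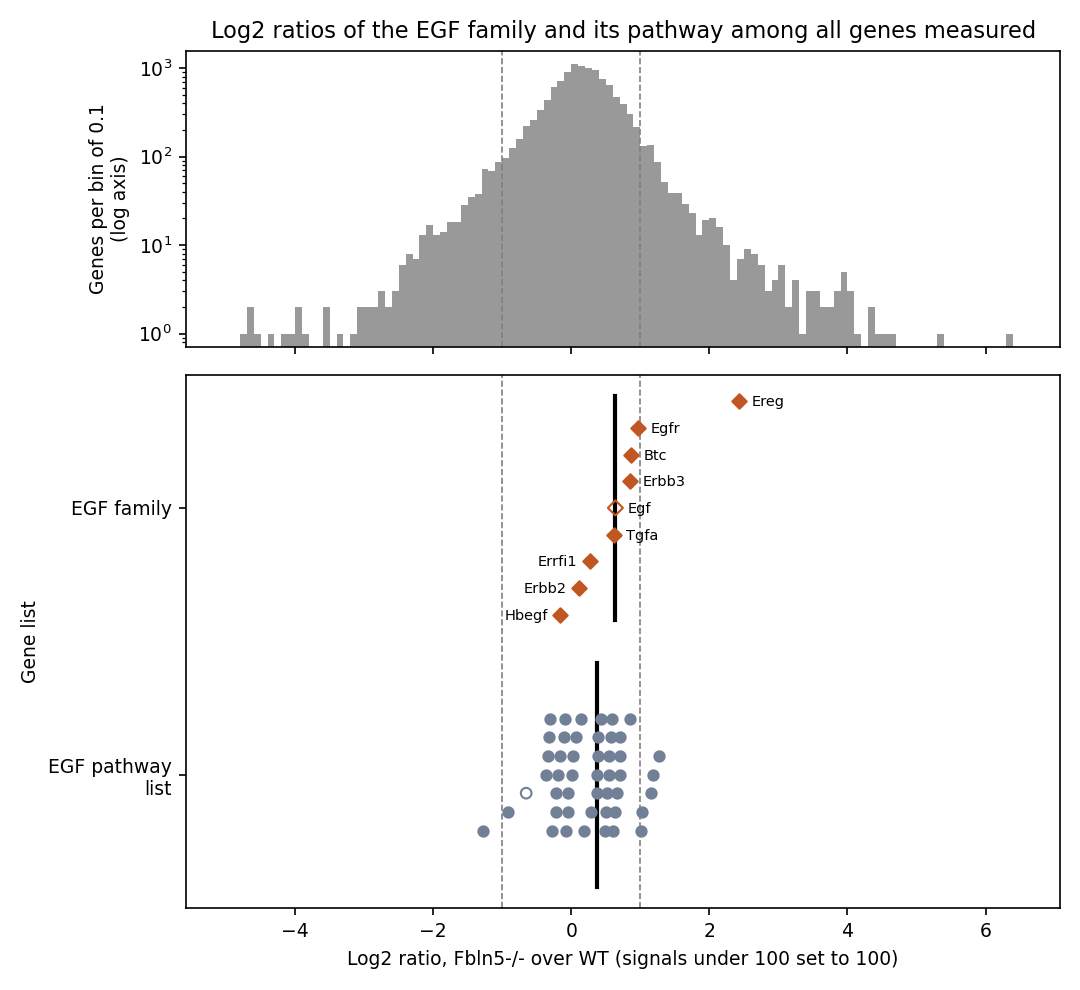
Log2 ratio of *Fbln5*-/- over WT (1 array each), with signals under 100 set to 100. The upper panel counts all 11934 genes in bins of 0.1 (log axis), and the lower panel shows the 9 EGF family genes (diamonds) and 47 genes of the pathway list (circles, their height within a list has no meaning), with open symbols for bounds, black bars for medians (0.64 and 0.37) and dashed lines at a 2-fold difference. *Ereg* at 2.43 is the 1 family member past 2-fold, and *Hbegf* at −0.16 is the 1 member below 0.

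The stretch upstream of the start is shown for *Btc* and *Egfr*, higher on the *Fbln5*-/- array, and for *Erbb2*, which differed little, so that their letters can be compared. The sequences are from RefSeq on build GRCm38.p6, 250 bases before the annotated start, 5′ to 3′ on the gene's own strand. The table used held 7 of the 10 members, in 9 windows, and *Ereg*, *Hbegf* and *Erbb3* were not among them. Capitals mark the GC box GGGCGG, read on either strand. The windows are chr5:91402995-91403244, minus strand, chr11:16751953-16752202, plus strand, and chr11:98412234-98412483, plus strand.
Btc: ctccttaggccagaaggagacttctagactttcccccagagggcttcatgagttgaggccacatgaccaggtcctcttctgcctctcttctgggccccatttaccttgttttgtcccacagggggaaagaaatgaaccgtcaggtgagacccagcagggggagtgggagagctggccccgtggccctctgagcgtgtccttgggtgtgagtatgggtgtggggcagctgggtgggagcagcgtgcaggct
Egfr: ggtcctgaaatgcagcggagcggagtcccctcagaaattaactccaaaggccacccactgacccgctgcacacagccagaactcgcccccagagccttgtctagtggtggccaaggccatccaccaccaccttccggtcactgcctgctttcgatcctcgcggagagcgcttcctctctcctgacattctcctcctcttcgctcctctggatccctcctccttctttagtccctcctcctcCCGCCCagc
Erbb2: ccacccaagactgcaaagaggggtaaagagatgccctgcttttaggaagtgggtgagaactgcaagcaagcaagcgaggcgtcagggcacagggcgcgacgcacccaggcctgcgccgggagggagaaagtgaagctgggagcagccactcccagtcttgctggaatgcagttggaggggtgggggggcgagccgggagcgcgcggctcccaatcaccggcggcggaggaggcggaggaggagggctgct
The *Egfr* window held 1 GC box, and those of *Btc* and *Erbb2* held none. The estrogen response element (GGTCA, any 3 bases, then its reverse complement) and the AP-1 site TGANTCA were in none of the 9 member windows, and in 0.0639% and 6.75% of all 32851 windows of the same length. The GC box was in 4 of the 9, against 32.7% of all, and the cAMP response element TGACGTCA in 2 of the 9, against 1.55%. The TATA box TATAAA was in 2 of the 9, against 12.4%. Both strands were searched, and no motif's letters contain another's. The 2 windows with the cAMP response element and the TATA box were those of *Areg* and of 1 of the 2 *Errfi1* starts. These matches describe the letters in the windows.

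The rest of the pathway was read from a list of 55 genes chosen for their role, with earlier results of these data known. Of the 55, 50 had a probe set under their name and 47 passed the limit of 100. Of the 47, 5 were higher by 2-fold or more in *Fbln5*-/- and 1 was lower by as much, beside 5.8% and 3.95% of all genes. At 1.5-fold, 13 were higher and 3 were lower, beside 18.2% and 9.3% of all genes. The median log2 ratio was 0.37 (0.15 over all genes), and −0.01 with the mean over the probe sets of each gene. By probe set the balance was the other way, with 6 of the 101 past the limit at least 2-fold higher and 12 at least 2-fold lower (4.74% and 6.39% of all probe sets), and a median log2 ratio of 0.08.

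The other ligands on the list that passed the limit did not follow *Ereg*, and the enzymes that release ligands gave no single direction. *Epgn*, which encodes epigen, a further EGFR ligand, had signals of 285.5 and 230.5, a log2 ratio of −0.31. Of the neuregulins, which bind ERBB3 and ERBB4, *Nrg1* read 297.5 and 231.7, a log2 ratio of −0.36, and *Nrg2* read 157.3 and 84.4, at least 1.57-fold lower. *Nrg3* and *Nrg4* were under 100 on both arrays. *Adam17*, the main sheddase of TGFα, amphiregulin and epiregulin precursors, read 1803 and 2548 at its brightest probe set and 1156 and 584.1 at the next, log2 ratios of 0.50 and −0.98. *Adam10*, the sheddase of EGF and betacellulin precursors, read 2840 and 3811 at its brightest probe set and 1413 and 301.9 at the next, log2 ratios of 0.42 and −2.23. For both sheddases the remaining probe set past the limit was lower as well, at least 3.21-fold for *Adam17* and at least 2.12-fold for *Adam10*. Their direction therefore depended on the probe set, and the part of the lower 5′ signal in it was not tested.

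Inside the cell, the largest ratio on the list was that of *Pik3cb*, a catalytic subunit of PI3 kinase, with signals of 236.7 and 570.3 (2.41-fold higher). *Plcg1*, the phospholipase that binds activated EGFR, had signals of 733.3 and 1666 (2.27-fold higher). *Akt1*, a kinase downstream of PI3 kinase, was the 1 gene at least 2-fold lower, with signals of 3522 and 1455 (2.42-fold lower). Its second probe set went from 2145 to 3.80, at least 21.4-fold lower, and another read 111.4 and 105.8. The probe sets of *Akt1* thus differed widely among themselves, and the part of the lower 5′ signal was not tested. *Egr1* and *Myc*, both switched on by MAP kinase signaling, had log2 ratios of −0.22 and 0.37 at their single probe sets. *Ccnd1*, which encodes cyclin D1 and is switched on in the same way, had log2 ratios of −0.34, 0.86 and −0.70 at its 3 probe sets, so its direction depended on the probe set.

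Inhibitors of the pathway split. *Dusp4*, a phosphatase that inactivates MAP kinases, had signals of 220.4 and 489.2 (2.22-fold higher), and the related *Dusp6* had 1128 and 1709 (1.51-fold higher). *Cblb*, a ubiquitin ligase that takes receptors off the surface, read 208.3 and 417.7 at its brightest probe set, 2.01-fold higher, and its next probe set was 1.42-fold higher. *Spred1*, an inhibitor of RAS signaling, read 439.3 and 896.1 at its brightest probe set, 2.04-fold higher, but the mean log2 ratio of its 7 probe sets past the limit was 0.24. Both *Cblb* and *Spred1* lay under 2-fold with each other scaling of the arrays, with log2 ratios of 0.90 to 0.98 for *Cblb* and 0.92 to 0.98 for *Spred1*. The related *Spred2* had a log2 ratio of 0.55, and the sprouty inhibitors *Spry1* and *Spry2* had log2 ratios of 0.54 and −0.09. *Lrig1*, a membrane inhibitor that promotes loss of EGFR and ERBB receptors, was lower on the *Fbln5*-/- array at both probe sets past the limit. They read 501.4 and 265.0, and 460.0 and 214.4, log2 ratios of −0.92 and −1.10. Of all genes, 4.55% had a lower ratio than its brighter probe set. Both probe sets have names ending in _s_at or _a_at, so *Lrig1* had no value in the setting without such probe sets. The part of the lower 5′ signal in these readings was not tested. The related *Lrig2* had log2 ratios of 0.57 and 0.51 at its 2 probe sets past the limit, and *Lrig3* had 0.29 and 0.05.

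The order of the family by ratio, from *Ereg* through *Egfr*, *Btc*, *Erbb3*, *Egf*, *Tgfa*, *Errfi1* and *Erbb2* to *Hbegf*, is that of these arrays. From *Egfr* to *Tgfa* the log2 ratios lay between 0.97 and 0.61, closer together than the pooled SD of 0.52 among probe sets of 1 gene, so no order is read within those 5. The same holds for *Errfi1*, *Erbb2* and *Hbegf*, between 0.27 and −0.16, and for the step from *Tgfa* to *Errfi1*.

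**Figure D3:**
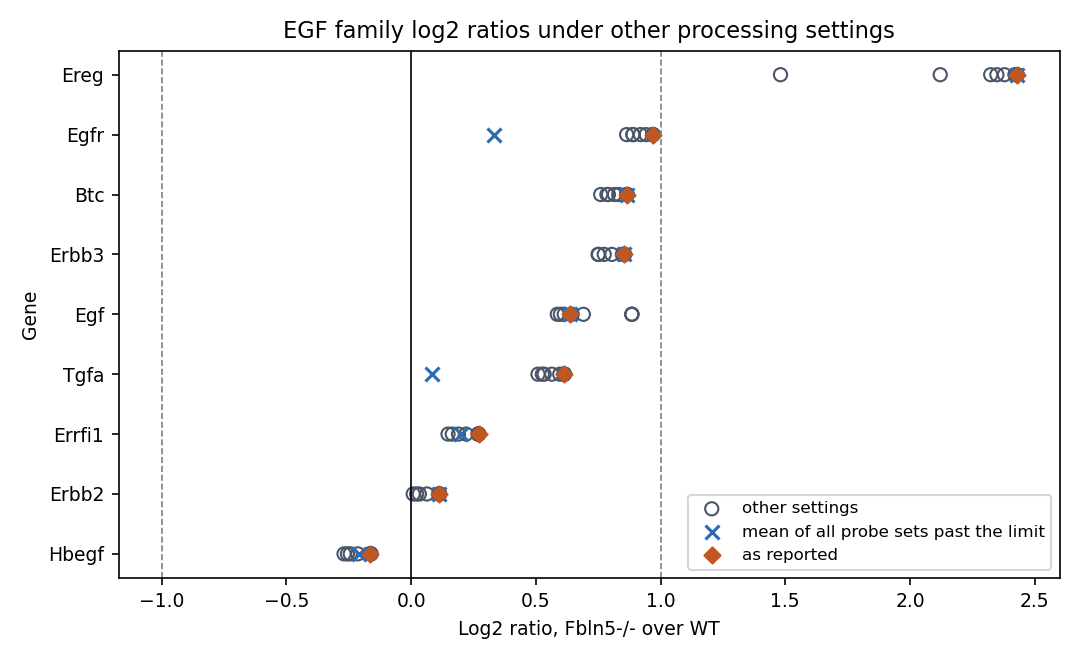
Log2 ratio of *Fbln5*-/- over WT for the 9 EGF family genes as reported (diamonds), with the mean over all probe sets past the limit (crosses) and under the other settings tried (open circles), with dashed lines at a 2-fold difference. *Ereg* stays past 2-fold under every setting in which it was computed (1.48 to 2.43), *Egfr* and *Tgfa* drop to 0.33 and 0.08 as the mean over probe sets, and *Hbegf* stays below 0.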

How the data were processed

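Vaginal RNA was hybridized to Affymetrix mouse expression arrays, 1 for WT and 1 for *Fbln5*-/-. The authors deposited MAS5 signal intensities, per the labels, with no MAS5 version given in the sources used here. Their mean after trimming 2% at each end was 500.0 on both arrays. Detection calls were left aside.

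The array medians were made equal, by factors of 0.972 (WT) and 1.03 (*Fbln5*-/-). Probe sets reaching 100 on either array were kept, and signals under 100 were then set to 100. Of 45101 probe sets, 34958 were listed with 1 gene symbol, and 34754 of these matched the RefSeq gene table. No gene was named from the 932 listed with several. The brightest probe set, by mean signal, stood for its gene. Named genes were every EGF family member, 12 pathway genes set by role, and all others of the list past 2-fold; *Ccnd1*, *Myc*, *Lrig2*, *Lrig3*, *Spry1* and *Spred2* were named after their values were seen. The members and lists were chosen with earlier results of these data known.

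No test was possible with 1 array per genotype, and the precision of each ratio is limited by the number of arrays. The steps were tested on simulated data. The alternatives were other scalings, floors, limits and choices of probe set. Scripts ran under Python 3.11.15 with pandas 2.3.3, numpy 2.4.6 and scipy 1.17.1, and plots were drawn with matplotlib 3.10.9.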

Additional observations from a re-analysis of the deposited data

How the results depend on the processing

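Under all 11 alternatives 1 EGF family gene of the 8 or 9 measured, *Ereg*, was higher by 2-fold or more and 0 were lower by as much. Over all genes, the counts higher ran from 529 of 10349 with the limit at 200 to 2048 of 18193 without a filter. The counts lower ran from 371 to 1535 in the same 2 settings. The family's median log2 ratio was 0.33 to 0.85. With 1.5-fold in place of 2-fold, chosen after seeing the data, 6 family genes were higher. On the pathway list 13 were higher and 3 were lower. Of all genes, 18.2% were higher and 9.3% were lower by as much. Of the pathway list, 3 genes in place of 5 were at least 2-fold higher on the deposited scale, with the 75th percentile, with quantile normalization, with the median ratio set to 1 among probe sets reaching 100 on each array, with 32 added to each signal and with the mean of the probe sets of a gene. *Cblb* and *Spred1* were under 2-fold in each of these. Under the same settings, 555 to 690 of all genes were at least 2-fold higher, in place of 692. In place of 1, 2 pathway genes were at least 2-fold lower on the deposited scale, with that median ratio of 1, without a filter, with the mean of the probe sets and without probe sets ending in _x_at, _s_at or _a_at. Over all genes the counts lower were, in the same order, 544, 571, 1535, 543 and 417, in place of 471. They were out of 11931, 11933, 18193, 11934 and 10187 genes measured. The pathway list's median was −0.01 with the mean of the probe sets. That mean also turned *Adam10* to −0.96 and *Adam17* to −0.72. The median ratio of 1 moved the median of all genes from 0.15 to 0.05. Without a filter, 18193 genes were counted. The cause of these shifts was not tested.

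No paired analysis was possible because each genotype has 1 array. Signals under 100 were taken as not measured by the limit set here, which held for 55.2% of WT and 55.6% of *Fbln5*-/- probe sets.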

Other observations

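4 ligand genes of the family, *Epgn*, *Ereg*, *Areg* and *Btc*, follow each other on chromosome 5 in the RefSeq annotation of GRCm38.p6, with 0 other protein-coding genes between neighbours. The log2 ratios along this stretch were −0.31 for *Epgn*, 2.43 for *Ereg* and 0.87 for *Btc*, with *Areg* not analysed here. Neighbouring ligand genes thus read on both sides of 0 on these arrays. The *Epgn* ratio rests on 1 probe set and was smaller in size than the pooled SD of 0.52 among probe sets of 1 gene.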
